A study of Saccharomyces cerevisiae with 21 samples.

Results

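In a barcoded collection of 361 budding yeast strains (Saccharomyces cerevisiae), 25 strains took a larger share of the reads with methotrexate (MTX) than without it in most of the pools in which they could be measured. They were chosen by their effect in medium without any further drug. For each strain barcode and each pool the effect was the log2 of (reads + 0.5) over the pool's total reads, averaged over replicates A and B, with MTX minus without MTX. A barcode in a pool was counted when its mean over the 20 libraries collected at 96 h was 10 reads or more, and a strain was a member when it had at least 20 such pools and a median effect above 1. Of the 361 strains, 309 had at least 20 such pools and 25 were members.

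Each of 61 pools carried a reporter for 1 pair of yeast proteins, built from 44 proteins, and a further pool labelled as a reference without an interaction was kept apart. The groups were cells grown with MTX at 10 µg/mL together with 5-FC at 0.2 µM, fluconazole at 100 µM, metformin at 50 mM, trifluoperazine at 17.5 µM or no drug, against cells grown with the same drug, or none, and no MTX. Each of these 10 groups had 2 libraries, A and B, from cultures passaged daily in synthetic defined medium with glucose and leucine and collected at 96 h, and 1 library came from time 0. All came from the same in-house library of strains, and the labels do not say whether A and B were separate cultures, so the p-values below measure only the spread between these samples.

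The assay rests on dihydrofolate reductase, the enzyme that regenerates reduced folate for the synthesis of purines and thymidylate. In the protein-fragment complementation form of the assay, 2 proteins are each fused to a fragment of a methotrexate-resistant form of this enzyme, and growth in MTX then depends on the fragments coming together. MTX blocks the cell's own enzyme, so that a strain's share of a pool after growth in MTX reflects both the reporter and the strain's growth in that medium. 5-FC, fluconazole (an inhibitor of the sterol demethylase Erg11), metformin and trifluoperazine were added to the medium as drugs. The files name each strain by a barcode number and hold no barcode sequence, and the genotypes behind the numbers were not used here.

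Libraries collected at 96 h had between 5370053 and 10620612 reads, and that of time 0 had 2412905. Pool totals per library ran from 4225 to 850312 reads with a median of 98411. All shares are relative to the other strains of the same pool, so a strain's share can move because others do. Amplified reads do not each stand for a molecule of their own, so counting errors cover read sampling only.

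The members' median effects without drug ran from 1.01 to 4.08, with a median over the 25 of 1.61. Over all 309 strains with enough pools the median was -1.88, and 79 of them were above 0. These values chose the members and are given as a description. The 5 highest were strain 999 (4.08 over 31 pools), strain 252 (3.97 over 25 pools), strain 359 (3.54 over 34 pools), strain 89 (2.54 over 61 pools) and strain 1035 (2.48 over 49 pools). Just inside the threshold lay strain 400 at 1.09, strain 760 at 1.01 and strain 185 at 1.01. Just outside lay strain 639 at 0.97 and strains 442 and 741 at 0.96. Taken from 1 replicate alone, the median was above 1 in 24 members with replicate A and in 23 with replicate B. Both replicates entered the choice, so these counts do not measure how well they agree.

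The strains at the top of that order were mostly rare ones. Strain 999 passed the read filter in 31 of 61 pools, and with the filter applied to the libraries without MTX alone it passed in 6. Strain 252 passed in 25 pools, or 17 by the filter without MTX, where its median effect was -0.37. Over all 61 pools without any filter the median effect of strain 252 was 0.30, that of strain 999 was 3.13, that of strain 359 was 2.83 and that of strain 1035 was 2.15. Some pools of these strains thus entered through the reads they gained with MTX. With the filter on the libraries without MTX 19 strains met the rule and 7 of the 25 members did not: strains 999, 252, 359, 1035, 40, 658 and 185, which include 4 of the 5 highest medians. A filter of 50 reads lost the same 7. By contrast 14 of the 25 members passed in all 61 pools, among them strains 89, 983, 734, 838, 1069 and 972.

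Strain 999 took 0.154% and 0.0504% of the reads of the 61 pools in replicates A and B with MTX, against 0.00313% and 0.00249% without MTX. Strain 252 took 0.0647% and 0.0216% with MTX, against 0.00563% and 0.00741% without. Strain 359 took 0.258% and 0.0922% with MTX, against 0.00685% and 0.00866% without. In these 3 rare strains the lower MTX replicate, B, still lay above both libraries without MTX. Strain 89 was common, with 2.00% and 0.987% of reads with MTX, against 0.193% and 0.150% without. Strain 1035 took 0.0332% and 0.0293% with MTX, against 0.00683% and 0.00685% without. Replicate A was the higher MTX library in each of these 5 strains, and the 2 groups overlapped in none of them. These same libraries chose the members and ranked the 5 strains first, so the lack of overlap is a description only.

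Together the 25 members made up 51.9% and 50.3% of all reads of the 61 pools with MTX in medium without drug, against 14.9% and 15.3% without MTX and 13.7% at time 0. Most of this belonged to 1 strain. Strain 838 alone held 31.0% and 35.4% with MTX, against 10.2% and 11.0% without MTX and 8.45% at time 0. Leaving strain 838 out of both the members and the total, the other 24 made up 30.3% and 23.0% of the remaining reads with MTX, against 5.23% and 4.79% without.

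In the drug media, which entered the choice only through the read filter, the members' share with MTX was of a like size. It was 42.8% and 44.9% with MTX in 5-FC, against 17.1% and 14.7% without MTX. In fluconazole it was 51.6% and 46.1% with MTX, against 13.3% and 16.1% without. In metformin it was 39.2% and 39.9% with MTX, against 14.0% and 15.3% without. In trifluoperazine it was 53.7% and 56.0% with MTX, against 14.6% and 14.7% without. Strain 838 held 27.0% and 30.1% with MTX in 5-FC, 29.5% and 28.5% in metformin, and 38.8% and 40.7% in trifluoperazine. In fluconazole strain 838 held 13.5% and 9.01% with MTX, against 5.53% and 7.50% without, and the other 24 members held 38.1% and 37.1% of all reads with MTX.

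The most abundant strain of each pool also differed between media. With MTX a member led 53 of the 61 pools without drug and 39 in fluconazole, with 46 in 5-FC, 49 in metformin and 50 in trifluoperazine. Without MTX a member led 18 pools without drug and 9 in fluconazole, with 23 in 5-FC, 20 in metformin and 20 in trifluoperazine. Strain 838 was the leader with MTX in 49 pools without drug, 44 in 5-FC, 48 in metformin and 49 in trifluoperazine, but in 11 in fluconazole. In fluconazole with MTX, 10 different members led at least 1 pool, with strains 1069 and 578 each leading 7.

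A strain broke the pattern in a pool when its effect there was below 0 in both replicates. Each replicate's effect was A with MTX minus A without, or B minus B. This pairing is arbitrary, as the letters did not pair the libraries. The 25 members gave 1312 barcode-and-pool features that passed the read filter, of 1525 in all. Without drug 994 of them had an effect above 0 in both replicates, 99 below 0 in both, and 219 were mixed. The 99 were 7.55% of the members' features, beside 63.6% of all features tested in these pools, a difference that follows from how the members were chosen. In 26 pools no member broke the pattern.

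Strains 999, 359, 1035 and 185 had no breaking pool among those that passed. Strain 400 had the most, with 12 of 61 pools, followed by strain 760 with 9 of 61, strain 350 with 7 of 54, strain 94 with 7 of 61 and strain 1069 with 6 of 61. Strain 252, second by median, had 5 breaking pools of 25, with 15 above 0 in both replicates. Strain 400 ranged over the pools from -5.58 to 7.14 and strain 760 from -2.47 to 7.96, both spreads far wider than the distance of their medians from 0. Strain 838 broke the pattern in 2 pools and was above 0 in both replicates in 54.

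By pool the breaks were uneven. ALO1_ADE17 had 9 of 20 passing members below 0 in both replicates, RET2_SNA3 had 8 of 15, ADE17_GIS2 and ADE17_PGM2 each had 8 of 19, and ADE17_HYR1 had 5 of 19. Ade17 is an enzyme of purine synthesis that uses a reduced folate as cofactor. Its partners in these pools were Alo1, an oxidase that makes an ascorbate-like antioxidant, Gis2, an RNA-binding zinc-knuckle protein, Pgm2, a phosphoglucomutase, Hyr1, a glutathione peroxidase, and Hug1, an inhibitor of ribonucleotide reductase. Ret2 is a subunit of the COPI vesicle coat, and Sna3 is a membrane protein sorted into the vacuole.

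The median effect over the members was lowest in RET2_SNA3 at -0.74, ADE17_GIS2 at -0.35 and ALO1_ADE17 at -0.12, and no other pool had a median below 0. It was highest in HUG1_PGM2 at 3.07, PMC1_CTR2 at 3.00 and PMC1_GTR2 at 2.78. Pmc1 is the vacuolar calcium pump, Ctr2 a vacuolar copper transporter and Gtr2 a GTPase of the EGO complex. In PMC1_GTR2 all 23 passing members were above 0 in both replicates, and the members together took 71.8% of that pool's reads with MTX, against 11.7% without. HUG1 and PGM2 each also occur in an ADE17 pool, with members' medians of 1.43 in HUG1_ADE17 and 0.21 in ADE17_PGM2.

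Sharing of ADE17 by the pools with the most breaks was seen in the values, and grouping the 5 ADE17 pools was chosen after that. Without drug, 31 of the 98 members' features in the 5 ADE17 pools were below 0 in both replicates, against 68 of 1214 in the other 56 pools. The fifth, HUG1_ADE17, contributed 1 of the 31. All strains together also stood lower in the ADE17 pools: 71.8% of all their tested features were below 0 in both replicates, beside 63.6% over the 61 pools. Measured against the median of all tested features of their own pool, a comparison also added after the values were seen, members lay above that median in 87 of 98 features in the ADE17 pools and in 1197 of 1214 elsewhere. Of the 99 breaking features 72 lay above their pool's median, 20 of the 31 in the ADE17 pools and 52 of the 68 elsewhere. Members were chosen for high effects in this same medium, which favours places above the pool's median, so these counts are a description only.

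Some of these breaks were deep. Strain 350 in ADE17_GIS2 had 36 and 27 reads with MTX, against 1532 and 490 without, which is 0.0226% ± 0.00108 of the pool against 1.68% ± 0.276 (SD, n = 2). Strain 400 in ADE17_PGM2 had 27 and 14 reads with MTX, against 546 and 1005 without. Strain 400 in ADE17_GIS2 had 24 and 10 reads with MTX, against 383 and 148 without. In all 3 the reads with MTX lay far below those without. Strain 94 in ALO1_ADE17 had 37 and 16 reads with MTX, against 282 and 271 without.

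The remaining deep breaks were in pools without ADE17. Strain 40 in ERV25_RBD2 had 7 and 4 reads with MTX, against 456 and 175 without. Erv25 is a p24 cargo receptor and Rbd2 a rhomboid-like membrane protein. Strain 252 in HNM1_MAM33 had 0 reads in both libraries with MTX, against 43 and 2 without, a share at least 21.5-fold lower when the floor is set at 3 reads over the group. Hnm1 is the choline transporter and Mam33 a mitochondrial matrix protein. The 2 libraries without MTX lay far apart in that pool.

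The same ADE17 pools held some of the members' strongest gains. In ADE17_GIS2 strain 760 had 82042 and 67098 reads with MTX, against 178 and 70 without, and so took 54.0% ± 5.87 of the pool with MTX, against 0.215% ± 0.00404 without (SD, n = 2). Strain 540, chosen for mention after its values were seen, took 35.2% ± 5.88 of that pool with MTX, against 0.346% ± 0.0484 without. With these 2 strains the members together held 91.9% of ADE17_GIS2 with MTX, against 8.54% without, although 8 of 19 broke the pattern there. Strain 838 stayed near its share without MTX in ADE17_GIS2, at 2.11% ± 0.244 with MTX, against 2.19% ± 1.14 without.

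In the other ADE17 pools different strains took over. ADE17_PGM2 was led with MTX by strain 676, no member, with 40.6%, and the members together held 5.75% with MTX, against 11.7% without. ADE17_HYR1 was led by strain 690, also no member, with 24.9%. ALO1_ADE17 was led by member strain 838, with 49.1% ± 5.41 with MTX, against 5.29% ± 2.62 without. HUG1_ADE17 was led by member strain 658, with 12.0% ± 5.28 with MTX, against 0.0677% ± 0.000507 without.

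RET2_SNA3 was a pool of another kind. A strain that is no member, 756, held 95.6% ± 0.697 of its reads with MTX, against 40.7% ± 8.45 without, and the 15 passing members together held 2.30% with MTX, against 4.12% without. All 15 nevertheless lay above the median of the pool's tested features, which was -3.06, in the medium that chose the members. Strain 838 had 1946 and 1587 reads there with MTX, against 287 and 607 without, which was 1.56% ± 0.124 of the pool with MTX, against 2.75% ± 1.73 without. Its reads were higher with MTX and its share was not, the pool's total being larger with MTX too.

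In the drug media the members' median effect in RET2_SNA3 was above 0, and in 5-FC and metformin so was that of the whole pool. The members' median there was 2.72 in 5-FC, 1.97 in trifluoperazine, 2.14 in metformin and 0.74 in fluconazole. The median of all tested features of the pool was 0.37 in 5-FC, -0.91 in trifluoperazine, 0.15 in metformin and -1.43 in fluconazole, against -3.06 without drug. Less that median, the members' median was 2.31 without drug, 2.35 in 5-FC, 2.88 in trifluoperazine, 1.99 in metformin and 2.17 in fluconazole. In 5-FC all 15 members were above 0 in both replicates, and edgeR's quasi-likelihood test called 10 of them higher with MTX and 0 lower, where 16.2% of the pool's features were called higher and 22.3% lower (7.51% and 42.2% of the features of all pools). The count called lower was also 0 at an unadjusted p under 0.05 and with DESeq2. Strain 756 held 86.6% with MTX in 5-FC, against 57.4% without. The members held 6.16% with MTX in that medium, against 1.03% without.

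Across the drug media, the median effect over pools was above 0 in all 25 members in 5-FC and in trifluoperazine, in 22 in metformin and in 13 in fluconazole. Of the 309 strains it was above 0 in 97 in 5-FC, 66 in trifluoperazine, 107 in metformin and 61 in fluconazole. The median of the members' medians was 1.56 in 5-FC, 1.44 in trifluoperazine, 1.15 in metformin and 0.40 in fluconazole. Over the 309 strains it was -1.23 in 5-FC, -1.78 in trifluoperazine, -1.04 in metformin and -2.13 in fluconazole.

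Each strain's reads were also summed over the 61 pools and tested with edgeR's quasi-likelihood test across all 361 strains, called at a Benjamini-Hochberg adjusted p under 0.05. In this test the members' strains divided by medium. Pools in which a strain had many reads weigh most in its sum, so the summed change can differ from the median over pools. For strain 760 in trifluoperazine, as an example chosen after its values were seen, the summed change was 2.28 and the median over pools 0.87. The test gives each strain's change relative to the sum of all strains, and the median change over the 361 strains was -1.30 in 5-FC, -1.82 in trifluoperazine, -0.92 in metformin and -2.10 in fluconazole. With trimmed-mean (TMM) scaling, which sets the typical strain near 0, the same medians were 0.09 in 5-FC, -0.25 in trifluoperazine, -0.15 in metformin and -0.26 in fluconazole. The members' changes below are relative to the total unless TMM is named.

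In 5-FC, 24 of the 25 members were called higher with MTX and 0 lower, where 15.8% of all strains were called higher and 51% lower. The count called lower was 0 as well at an unadjusted p under 0.05 with edgeR, and with TMM, DESeq2 and limma. The members' median change was 1.54 on the log2 scale. Groups did not overlap in 25 members, all higher with MTX, where 24.9% of all strains lay wholly higher and 61.5% wholly lower. The count called higher was 15 when replicate A of 5-FC without MTX was left out, and 14 of the 24 calls held under every alternative tried.

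Strain 999 had the highest change in 5-FC, with 0.0320% and 0.0418% of reads with MTX, against 0.00317% and 0.00369% without. Its log2 change was 3.43 (SE 0.51, adjusted p = 1.3e-05 by edgeR's quasi-likelihood test with Benjamini-Hochberg adjustment), well beyond the spread of the replicates. The lowest was strain 252, with 0.0117% and 0.00976% with MTX, against 0.00702% and 0.0074% without. Its change of 0.57 (SE 0.56, edgeR adjusted p = 0.38) was the 1 that did not pass, although its 2 groups did not overlap. Strain 983, chosen for mention after its values were seen, was at 0.249% and 0.411% with MTX, against 0.0527% and 0.0560% without.

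Trifluoperazine gave much the same picture. Of the members 23 were called higher with MTX and 0 lower, where 10.8% of all strains were called higher and 57.6% lower, and again 0 were lower at an unadjusted p under 0.05 with edgeR or with TMM, DESeq2 or limma. The median change was 1.86, groups did not overlap in 25 members, all higher with MTX (17.7% of all strains, with 68.4% lower), and 20 of the 23 calls held under every alternative.

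Strain 359 stood highest in trifluoperazine. It took 0.127% and 0.179% of reads with MTX, against 0.0129% and 0.0123% without, a log2 change of 3.60 (SE 0.56, edgeR adjusted p = 2.2e-05). Strain 185 stood lowest, at 0.0207% and 0.0146% with MTX, against 0.0138% and 0.00844% without, and its change of 0.67 (SE 0.39, edgeR adjusted p = 0.14) did not pass. Strain 252 did not pass either, with a change of 0.68 (SE 0.56, edgeR adjusted p = 0.29). Strain 89 took 0.749% and 0.916% with MTX, against 0.0889% and 0.0984% without, a log2 change of 3.15 (SE 0.41, edgeR adjusted p = 2.9e-06).

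In metformin fewer members passed. The test called 17 higher with MTX and 1 lower, where 12.2% of all strains were called higher and 42.4% lower, and the median change was 1.36. Groups did not overlap in 23 members, 20 of them higher with MTX (25.8% of all strains) and 3 lower (59% of all strains). Of the 18 calls by edgeR, 14 held under every alternative, all of them higher. Strain 999 was again highest, with 0.0171% and 0.0129% with MTX, against 0.0022% and 0.00215% without, a log2 change of 2.78 (SE 0.49, edgeR adjusted p = 0.00022). Strain 252 was lowest, with 0.00327% and 0.00367% with MTX, against 0.00644% and 0.0106% without, and its change of -1.30 (SE 0.57, edgeR adjusted p = 0.062) did not pass.

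The member called lower in metformin was strain 734, with 0.0776% and 0.0956% of reads with MTX, against 0.196% and 0.182% without. Its log2 change was -1.13 (SE 0.34, edgeR adjusted p = 0.0089). The call was lost with TMM scaling, where the change was -0.36 with an adjusted p of 0.37, and without replicate A of metformin with MTX, where it was -0.98 with an adjusted p of 0.082. In 5-FC the same strain was at 0.668% and 0.524% with MTX, against 0.133% and 0.175% without. Strain 89, one of the 5 with the highest median without drug, was at 0.146% and 0.151% with MTX in metformin, against 0.154% and 0.255% without, and its change of -0.46 (SE 0.38, edgeR adjusted p = 0.30) did not pass and was above 0 with TMM.

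Fluconazole split the members. The test called 14 higher with MTX and 6 lower, with 5 not called, where 13.9% of all strains were called higher and 65.9% lower, and the median change was 1.15. With TMM scaling the split was 19 higher and 2 lower, with DESeq2 15 and 6, with limma on mean log2 shares 11 and 8, and with the 4 fluconazole libraries alone 9 and 2. Over all 361 strains TMM called 114 higher and 142 lower, and DESeq2 called 55 and 245. The same counts were 46 and 264 with limma, and 28 and 185 with the 4 libraries alone. Groups did not overlap in 20 members, 15 of them higher with MTX (16.1% of all strains) and 5 lower (68.1% of all strains). Of the 20 calls 10 held under every alternative: strains 983, 999, 972, 689, 842, 578, 94 and 1069 higher, and strains 400 and 359 lower.

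Strain 983 had the highest change in fluconazole. It took 4.20% and 3.95% of reads with MTX, against 0.0565% and 0.0503% without, a log2 change of 6.25 (SE 0.37, edgeR adjusted p = 8.5e-10). Each replicate with MTX was far above both without. Strain 999 took 0.302% and 0.218% with MTX, against 0.00275% and 0.00574% without, a change of 5.94 (SE 0.57, edgeR adjusted p = 1.1e-07).

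The other large gains in fluconazole were in strains that were of middle rank without drug, and these are named after their values were seen. Strain 972 took 6.92% and 6.38% with MTX, against 0.165% and 0.289% without, a log2 change of 4.87 (SE 0.36). Strain 689 took 1.37% and 0.993% with MTX, against 0.0596% and 0.0668% without, a change of 4.23 (SE 0.39). Strain 842 took 3.58% and 3.72% with MTX, against 0.200% and 0.300% without, a change of 3.87 (SE 0.29). The edgeR adjusted p of these 3 was at most 8.8e-08. Strain 578 took 8.13% and 6.55% with MTX, against 1.88% and 1.88% without, and strain 1069 took 6.01% and 6.09%, against 1.71% and 1.73%. Both were already common in fluconazole without MTX, and their changes were smaller, at 1.97 and 1.81.

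At the other end stood strain 400, with 0.00421% and 0.00297% of reads with MTX in fluconazole, against 0.191% and 0.0626% without. Its log2 change was -5.14 (SE 0.46, edgeR adjusted p = 7e-08). Without drug the same strain was at 0.530% and 0.396% with MTX, against 0.168% and 0.163% without. Strain 359, among the 5 of highest median without drug, took 0.00517% and 0.00383% with MTX in fluconazole, against 0.124% and 0.0456% without, a change of -4.24 (SE 0.58, edgeR adjusted p = 4.8e-06). In both strains the 2 groups lay far apart, in the opposite order to that without drug.

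Strain 252 was the next lowest in fluconazole, with 0.0176% and 0.00635% with MTX, against 0.0732% and 0.0297% without, a change of -2.10 (SE 0.58, edgeR adjusted p = 0.0035). This call was lost with TMM (-0.32, adjusted p = 0.60), with the 4 fluconazole libraries alone, and without replicate A of fluconazole without MTX (-1.31, adjusted p = 0.064). Strains 124, 713 and 649 were called lower with changes of -1.84, -1.38 and -1.16, and with TMM all 3 changes were above 0, at 0.14, 0.52 and 0.77. Strain 649 changed sign also without replicate A of fluconazole without MTX, at 0.37, and its groups overlapped.

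Single libraries decided some of the smaller gains in fluconazole. Strain 838 changed by 0.79 (SE 0.23, edgeR adjusted p = 0.0056), and by 0.59 with an adjusted p of 0.079 without replicate A of fluconazole without MTX. Strain 89 lost its call without the same library (adjusted p = 0.052), strain 1035 without replicate A of either fluconazole group, strain 40 without replicate B of either, and strain 760 without replicate B of fluconazole without MTX. Strains 734, 350, 658, 717 and 185 were not called, with changes between -0.05 and 1.15. In 5 strains (734, 350, 540, 717 and 760) the change of the summed reads and the median over pools had opposite signs, the sum being above 0 and the median below. For strain 760 the sum was 1.03 and the median over pools -0.60, with 13.9% ± 8.84 of ADE17_GIS2 with MTX in fluconazole, against 0.252% ± 0.221 without.

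Over all 4 drug media 11 of the 25 members were called higher in each, where 4.43% of all strains were. Not all of these calls were stable. Strains 1035, 838, 40 and 760 did not keep theirs under every alternative in fluconazole. The same was true of strains 40 and 842 in 5-FC, and of strain 40 in metformin. The rest of the 11 kept their calls under every alternative in all 4 media. Strain 760 was called higher in fluconazole by summed reads, while its median over pools there was -0.60.

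The difference of the MTX effect between media was tested in the same model, over 6 pairs of media. Fluconazole minus 5-FC differed in 12 members, 5 higher and 7 lower, where 14.7% and 23% of all strains did. With TMM the split was 7 and 6, where 85 and 65 of all 361 strains were called. Strain 983 had the largest positive difference, 3.65 (SE 0.43, edgeR adjusted p = 8.8e-06), and strain 400 the largest negative one, -6.59 (SE 0.60, edgeR adjusted p = 4.7e-07). Strains 972 (3.05), 842 (3.09) and 689 (2.19) gained more in fluconazole, and strains 359 (-6.31), 124 (-3.30) and 713 (-3.44) less, under each of 13 alternatives. The calls on strains 999, 252, 734 and 649 were lost under at least 1 alternative.

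Fluconazole minus metformin differed in 14 members, 8 higher and 6 lower, where 7.2% and 39.6% of all strains did. With TMM the counts were 11 and 5, where 72 and 81 of all 361 strains were called. Strain 983 was again highest, at 3.69 (SE 0.43, edgeR adjusted p = 8.8e-06), and strain 400 lowest, at -6.70 (SE 0.60, edgeR adjusted p = 7.7e-07). Fluconazole minus trifluoperazine differed in 15 members, 5 higher and 10 lower, where 17.5% and 18.8% of all strains did. Under TMM scaling the counts were 5 and 7, where 90 and 61 of all 361 strains were called. Strain 999 was highest, at 3.27 (SE 0.67, edgeR adjusted p = 0.0011), and strain 359 lowest, at -7.84 (SE 0.81, edgeR adjusted p = 1.6e-06). Strains 983, 972, 842 and 689 were higher and strains 359, 400, 124 and 713 lower in fluconazole than in each of the other 3 drug media, and these calls held under every alternative.

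Differences among the other 3 media were few. Metformin minus 5-FC was called higher in 1 member, strain 842 at 1.13 (SE 0.37, edgeR adjusted p = 0.033), and lower in 3, where 24.4% and 2.49% of all strains were called. With TMM 0 were higher and 6 lower, where 33 and 21 of all 361 strains were called. The lower ones were strain 734 at -3.08 (SE 0.48, edgeR adjusted p = 0.00053), strain 89 at -1.71 and strain 540 at -1.50. The call on strain 734 alone held under every alternative. The count of 4 dropped to 1 without replicate B of metformin without MTX, to 3 without its replicate A, and to 2 without any other single library of the 8 compared.

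Metformin minus trifluoperazine was called lower in 4 members and higher in 0, where 1.66% and 26.9% of all strains were called. The count called higher was also 0 at an unadjusted p under 0.05 with edgeR, and with TMM and DESeq2, while limma called 2. Over all 361 strains TMM called 43 higher and 16 lower. The 4 were strain 89 at -3.61 (SE 0.55, edgeR adjusted p = 0.00026), strain 359 at -2.63, strain 734 at -2.61 and strain 540 at -1.46. The calls on strains 89 and 734 held under every alternative, and the count was 2 without replicate B of metformin without MTX and 10 with TMM. Trifluoperazine minus 5-FC was called in 0 members by edgeR, where 0.277% of all strains were called higher and 0.554% lower, with 3 higher at an unadjusted p under 0.05, 0 by DESeq2 and 2 by limma. Nearest to the threshold was strain 89, at 1.91 (SE 0.53, edgeR adjusted p = 0.14).

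Within single pools the test ran over 15974 features. In 5-FC, 487 of the members' 1312 features were called higher with MTX and 28 lower, where 7.51% and 42.2% of all features were. In trifluoperazine 500 were higher and 30 lower (6.39% and 45.3% of all), and in metformin 332 and 37 (5.07% and 30% of all). In fluconazole 471 were higher and 224 lower (10.5% and 46.6% of all). Features that passed only through reads gained with MTX had to differ upward. With the filter set on the libraries without MTX fewer members' features passed, 83 in the ADE17 pools and 1041 elsewhere. Of these, the counts called higher were 420 in 5-FC, 422 in trifluoperazine, 293 in metformin and 397 in fluconazole. Over all 16469 features that passed, the counts called higher were 1089, 918, 747 and 1556 in that order of media.

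With 1 replicate of both groups of a medium left out, each group had 1 library, which was assumed to vary like the other groups. Members' features called higher then numbered 158 (without A) and 150 (without B) in 5-FC, 60 and 52 in metformin, and 213 and 183 in trifluoperazine. Over all features the counts called higher dropped too, to 342 and 327 in 5-FC, against 1199 with both replicates. They dropped to 116 and 127 in metformin, against 810, and to 367 and 312 in trifluoperazine, against 1020. In fluconazole the members' counts stayed between 415 and 456, and those of all features were 1496 and 1650, against 1675. With TMM inside each pool the fluconazole split was 653 higher and 112 lower, with TMM over whole libraries 530 and 74, and with the 4 fluconazole libraries alone 248 and 69. Over all 15974 features the splits were 3002 and 5312, 2189 and 4102, and 629 and 4350, in that order.

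Breaks of the pattern were most numerous in fluconazole. Features below 0 in both replicates numbered 105 in 5-FC, 129 in trifluoperazine, 161 in metformin and 367 in fluconazole. They made up 8.00%, 9.83%, 12.3% and 28.0% of the members' features in that order of media, where 59.2%, 65.0%, 53.7% and 59.7% of all tested features were below 0 in both replicates. Pools in which no member was below 0 in both replicates numbered 22 in 5-FC, 13 in trifluoperazine, 3 in metformin and 0 in fluconazole. The members' median was below 0 in 15 pools in fluconazole, and in 3 in 5-FC, 4 in metformin and 2 in trifluoperazine.

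In fluconazole the calls within pools were unevenly spread over the strains. Of all features tested, 46.6% were called lower and 10.5% higher in that medium. Among the strains listed next, only strain 400 was called lower in a larger share of its pools than that. Strain 400 was called lower in 42 pools and higher in 1, strains 734 and 713 each lower in 23 and higher in 4, strain 760 lower in 18 and higher in 15, strain 717 lower in 17 and higher in 6, strain 649 lower in 16 and higher in 4, and strain 124 lower in 16. At the other end strain 983 was called higher in 60 of 61 pools, strain 972 higher in 53, strain 689 higher in 51 and lower in 1, and strain 842 higher in 47 and lower in 1. The pool in which strain 983 was not called higher was ERG11_ERG5, where it had 46 and 134 reads with MTX, against 0 and 102 without. Erg11 is the target of fluconazole and Erg5 a later enzyme of ergosterol synthesis, and in that pool the 2 groups overlapped.

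Extreme features in fluconazole were often near 0 reads on 1 side. The lowest called was strain 400 in HNM1_RBD2, with 0 reads in both libraries with MTX, against 384 and 1010 without, at least 119.9-fold lower (edgeR adjusted p = 2.7e-05). The highest called was strain 658 in ERG11_MID2, with 5 and 1030 reads with MTX, against 0 in both libraries without, at least 185-fold higher (edgeR adjusted p = 0.00021). Its 2 replicates with MTX differed widely, so that the bound rests on replicate B. Mid2 is a sensor of cell wall stress.

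In 5-FC the highest called feature was strain 359 in ADE17_GIS2, with 13 and 25 reads with MTX, against 0 in both without, at least 13.3-fold higher (edgeR adjusted p = 0.0021). The lowest was strain 252 in SSH1_ERV25, with 5 and 1 reads with MTX, against 183 and 111 without, a log2 change of -6.57 (SE 1.20, edgeR adjusted p = 0.00015). Ssh1 is a subunit of a translocon of the endoplasmic reticulum. In metformin the highest was strain 983 in RET2_SNA3, with 5 and 27 reads with MTX, against 0 in both without, at least 23.5-fold higher (edgeR adjusted p = 0.0013). In each of these 3 features the lower group held at most 5 reads per library.

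The lowest called in metformin was strain 89 in ERG11_PIS1, with 28 and 92 reads with MTX, against 65 and 9908 without, a log2 change of -6.46 (SE 1.63, edgeR adjusted p = 0.0041). The 2 libraries without MTX there lay far apart and their range included one of those with MTX. In trifluoperazine the lowest was strain 252 in HNM1_MAM33, with 0 reads in both libraries with MTX, against 10 and 16 without, at least 17.2-fold lower (edgeR adjusted p = 0.0025). The highest was strain 760 in ADE17_GIS2, with 86453 and 59994 reads with MTX, against 121 and 38 without, a log2 change of 8.21 (SE 0.76, edgeR adjusted p = 3.8e-07).

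That gain of strain 760 in ADE17_GIS2 recurred in the other drug media. It had 93559 and 22854 reads with MTX in 5-FC, against 337 and 248 without, a log2 change of 6.85 (SE 0.72, edgeR adjusted p = 8.7e-07). In fluconazole it had 29286 and 7306, against 335 and 79, and in metformin 10819 and 5608, against 25 and 193, with changes of 5.78 and 6.24. In all 4 media every library with MTX was above every one without. In fluconazole and metformin the pool was led by strain 598, no member, with 28.3% and 24.3%. Over the 5 ADE17 pools strain 760 was called higher in 3 in 5-FC, 3 in trifluoperazine, 5 in metformin and 2 in fluconazole.

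The ADE17 pools held 18 of the 28 members' features called lower in 5-FC, 17 of the 30 in trifluoperazine and 14 of the 37 in metformin. In these 5 pools, with 98 members' features, 18 were called lower and 16 higher in 5-FC, where 51.6% and 6.1% of all features of these pools were. In the other 56 pools, with 1214 members' features, 10 were called lower and 471 higher, where 41.2% and 7.5% of all features were. In metformin 14 were lower and 12 higher in the ADE17 pools (40.8% and 3.59% of all), against 23 and 320 elsewhere (28.8% and 5.05% of all). In trifluoperazine 17 were lower and 18 higher (56% and 4.49% of all), against 13 and 482 elsewhere (44.3% and 6.38% of all). In fluconazole 27 were lower and 23 higher (49.6% and 7.27% of all), against 197 and 448 elsewhere (46.1% and 10.8% of all).

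This split depended on the scale. With TMM inside each pool, which raised the share called higher over all features too, 6 of the ADE17 features were called lower and 56 higher in 5-FC (34.6% and 25.9% of all features of these pools). The counts were 3 and 33 in metformin (27.2% and 14.8% of all), 6 and 62 in trifluoperazine (33.2% and 21.7% of all), and 8 and 41 in fluconazole (31.4% and 19.3% of all). Elsewhere the same scaling gave 9 lower and 859 higher in 5-FC (35.3% and 19.2% of all), 9 and 507 in metformin (24% and 10.9% of all), and 6 and 876 in trifluoperazine (34.1% and 18% of all). So more members' features were called higher than lower in the ADE17 pools by this scale, while the share of features called lower was still larger there than in the other pools in 5-FC, metformin and trifluoperazine, though not in fluconazole, where elsewhere 104 of 1214 were lower (33% of all). The difference between the 2 sets of pools was not itself tested.

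Called lower with MTX in all 4 drug media were 7 of the 98 ADE17 features, where 28.9% of all features of those pools were. Elsewhere it was 2 of 1214, where 19.5% of all features were. The 7 were strains 350 and 400 in ADE17_GIS2 and in ADE17_PGM2, strains 578 and 689 in ADE17_GIS2, and strain 94 in ALO1_ADE17. The 2 others were strain 713 in MID2_WSC2, a pair of cell wall sensors, and strain 842 in ERV25_PIS1, where Pis1 makes phosphatidylinositol. With TMM inside each pool, strain 400 in ADE17_PGM2, strain 578 in ADE17_GIS2 and strain 713 in MID2_WSC2 were called lower in all 4 media and the others were not. Called higher in all 4 media were 4 ADE17 features (0.987% of all features there) and 74 elsewhere (0.647% of all).

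Strain 400 in ADE17_PGM2 had 11 and 12 reads with MTX in 5-FC, against 480 and 555 without, a log2 change of -6.19 (SE 0.86, edgeR adjusted p = 1.1e-05). In fluconazole it had 1 and 0, against 39 and 6, in metformin 34 and 80, against 494 and 1441, and in trifluoperazine 13 and 33, against 1604 and 1602. Within each medium no library with MTX reached one without. With TMM inside the pool the change in 5-FC was -3.49. Strain 350 in ADE17_GIS2 had 49 and 38 reads with MTX in 5-FC, against 1245 and 1429 without, a change of -5.26 (SE 0.88, edgeR adjusted p = 6.4e-05). In metformin it had 607 and 475 with MTX, against 673 and 4626 without, and the change of -2.27 (SE 0.76, edgeR adjusted p = 0.025) was not called with TMM.

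The falls of strain 400 were thus not the same across pools. In FMP45_HNM1, its highest pool without drug and chosen for mention after its values were seen, it took 0.889% ± 0.485 with MTX in 5-FC, against 0.0162% ± 0.00628 without, a log2 change of 5.79 (SE 1.15, edgeR adjusted p = 0.00033). It took 2.52% ± 0.857 there with MTX in trifluoperazine, against 0.0467% ± 0.0153 without, a change of 5.76 (SE 1.14, edgeR adjusted p = 0.00030). Fmp45 is a membrane protein of the cell cortex. In metformin the change was 3.06 (SE 1.02, edgeR adjusted p = 0.024), and in fluconazole strain 400 had 0 and 2 reads with MTX in that pool, against 8 and 0 without, too few to compare.

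The largest strain also had pools that broke its rise, and these are named after their values were seen. Strain 838 in ERV25_RBD2 took 1.08% ± 0.412 with MTX without drug, against 14.1% ± 1.39 without MTX. In 5-FC it took 1.65% ± 0.515 with MTX there, against 20.1% ± 2.41 without, a log2 change of -3.61 (SE 0.59, edgeR adjusted p = 5.2e-05). In metformin it took 5.27% ± 2.92 with MTX, against 14.7% ± 0.374 without, a change of -1.48 (SE 0.54, edgeR adjusted p = 0.040). In fluconazole (-0.67) and trifluoperazine (-0.92) the change in this pool was not called.

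Within 1 pool strain 734 had changes of opposite sign in 2 media, though the difference between media was not tested there. In PLM2_SNA3, chosen after its values were seen, it took 8.75% ± 2.70 with MTX in trifluoperazine, against 2.77% ± 0.261 without. It took 0.0548% ± 0.0647 with MTX in fluconazole, against 0.404% ± 0.0741 without, a log2 change of -2.88 (SE 0.72, edgeR adjusted p = 0.0020). This fluconazole call was lost with TMM inside the pool (-0.64, edgeR adjusted p = 0.55) and with TMM over whole libraries (-1.15, edgeR adjusted p = 0.45). In metformin its change of -0.55 there was not called. Strain 658 in HUG1_ADE17 took 4.22% ± 1.25 with MTX in trifluoperazine, against 0.0421% ± 0.0167 without, while in fluconazole it had 0 and 7 reads with MTX, against 9 and 1 without.

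Grouped by the proteins of the pool, members' features called lower in fluconazole were a smaller share than among all features in each group described here. In the 16 pools with proteins of ergosterol and lipid synthesis 51 of 360 features were called lower and 121 higher (38.7% and 11.7% of all features of those pools). In the 15 secretory pools it was 43 and 118 of 314 (44.8% and 11% of all), and in the 17 transporter pools 67 and 134 of 360 (50.8% and 10.4% of all). In the 12 pools with MID2, WSC2, PIN2 or FMP45 it was 43 and 111 of 264 (47.1% and 10.9% of all), and in the 10 pools with ERG11 27 and 72 of 227 (34% and 12.4% of all). In 5-FC the same groups had 2, 4, 3, 1 and 1 features called lower, where 38%, 39.5%, 43.7%, 46.4% and 34.4% of all their features were. The 7 pools with ADE17 or HUG1 had 18 of 143 features called lower in 5-FC (49.7% of all) and 31 in fluconazole (53.4% of all), and all of the 18, with 27 of the 31, lay in the 5 ADE17 pools. Groups share pools, and those of the antioxidant and RNA-binding proteins hold ADE17 pools too.

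The reference pool was not used to choose members, but its libraries without drug are those of the choice. Of the 25 members 23 passed the read filter there, and strains 1035 and 185 did not. In 5-FC 14 were called higher with MTX and 0 lower (12.6% and 55.1% of the pool's features), and in trifluoperazine 15 were higher and 0 lower (13.2% and 56.3%). Both counts of 0 were also 0 at an unadjusted p under 0.05 with edgeR, and with DESeq2. In metformin 12 were higher and 1 lower (11.1% and 50.2%), and in fluconazole 8 higher and 6 lower (8.92% and 57.2%).

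In this pool strain 252 rose far more than in the sum of the 61 pools. It had 36130 and 23557 reads with MTX without drug, against 3 and 43 without MTX. In 5-FC it had 11569 and 7161 with MTX, against 31 and 60 without, a log2 change of 7.44 (SE 1.67, edgeR adjusted p = 0.00094), where the sum over the 61 pools did not pass. In fluconazole it had 1448 and 1 reads with MTX, against 3509 and 2490 without, and the change of -2.64 did not pass. Strain 983 had 7413 and 25412 reads with MTX in fluconazole, against 12 and 14 without, and strain 689 had 14285 and 14749, against 9 and 19. Strain 400 had 3 and 1 reads with MTX in fluconazole, against 71 and 9 without, a log2 change of -4.43 (SE 0.92, edgeR adjusted p = 0.00047), in the same direction as in the 61 pools.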

How the data were processed

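Barcodes amplified from genomic DNA were counted in 21 libraries. The deposited values are raw read counts per barcode and pool, whole numbers that the authors had not normalized, per the labels and from the values themselves; the read filter, the program that matched barcodes and its settings are not given in the sources used here. Python 3.11.15 (numpy 2.4.6, pandas 2.3.3) joined the tables and applied the choice of members. Counts were tested in R 4.3.3 with edgeR 4.0.16 (quasi-likelihood, 1 coefficient per group, all 20 libraries at 96 h), per feature (a barcode in a pool) with the pool's total as offset, and per strain on reads summed over the 61 pools with summed reads as library size, with Benjamini-Hochberg adjustment over all features or strains. DESeq2 1.42.0, limma 3.58.1, TMM scaling, other read filters, a replicate block, the libraries compared alone and 1 replicate left out were alternatives, and the tests were tried on simulated data. Medium without drug chose the members, and no test in it is reported. SDs are over 2 replicates.

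Members, pools and lists were chosen with earlier results of these data known. Named strains are the 5 of highest median, the highest and lowest change in each drug medium, the 5 with most breaking pools, and those next to the threshold. Named pools are the 5 with most breaks, the 3 highest and 3 lowest medians, and the reference. Named features are the 6 deepest breaks and the highest and lowest called in each drug medium. Others were chosen after their values were seen: the members outside this rule, the leading strains that are no members, ERV25_RBD2, FMP45_HNM1, PLM2_SNA3, HUG1_ADE17, ERG11_ERG5, MID2_WSC2 and ERV25_PIS1.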

Additional observations from a re-analysis of the deposited data

Results flagged for a closer look

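The MTX effect of some members differed between drug media by a test of the difference itself (edgeR's quasi-likelihood test with Benjamini-Hochberg adjustment over 361 strains). Many strains that are no members differed too. For fluconazole minus 5-FC the members' shares called were near those of all strains, as was the share called higher for fluconazole minus trifluoperazine. Fluconazole minus 5-FC differed in 12 members, 5 higher and 7 lower, where 14.7% and 23% of all strains did. Fluconazole minus metformin differed in 14, 8 higher and 6 lower (7.2% and 39.6% of all strains), and fluconazole minus trifluoperazine in 15, 5 higher and 10 lower (17.5% and 18.8%). Metformin minus 5-FC differed in 4, 1 higher and 3 lower (24.4% and 2.49%), and metformin minus trifluoperazine in 4, all lower (1.66% of all strains were lower and 26.9% higher). With TMM the members' splits into higher and lower were 7 and 6, 11 and 5, 5 and 7, 0 and 6, and 0 and 10, in that order of pairs. Over all 361 strains TMM called 85 and 65, 72 and 81, 90 and 61, 33 and 21, and 43 and 16. Strain 400 stood lowest in fluconazole, by -6.59 on the log2 scale against 5-FC and -6.70 against metformin, and strain 359 by -7.84 against trifluoperazine. Strain 983 stood highest in fluconazole, by 3.65 against 5-FC and 3.69 against metformin, and strain 999 by 3.27 against trifluoperazine. In metformin strain 734 was lower by -3.08 and strain 842 higher by 1.13, both against 5-FC, and strain 89 was lower by -3.61 against trifluoperazine. Groups of 2 libraries were too small for a check of single outlying samples.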

How the results depend on the processing

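With TMM within each pool 85 strains met the rule, the 25 members among them, and with 1 replicate alone 26 to 33 did. With the filter on the libraries without MTX, or at 50 reads, 19 met it and 7 members did not. Over all 15974 features TMM within each pool called 3146 higher in 5-FC, 1788 in metformin and 2936 in trifluoperazine. The 4 fluconazole libraries alone called 629 higher. Members' features called higher, of 1312, were 915 in 5-FC, 540 in metformin and 938 in trifluoperazine with TMM within each pool, and 248 in fluconazole with the 4 libraries alone. Without 1 replicate they were 150 to 158 in 5-FC, 415 to 456 in fluconazole, 52 to 60 in metformin and 183 to 213 in trifluoperazine. Members called higher by summed reads were 15 to 18 in 5-FC, 12 to 14 in fluconazole, 14 to 16 in metformin and 20 to 22 in trifluoperazine without 1 library, and 9 in fluconazole with the 4 libraries alone. Without 1 library, differences numbered 10 to 16 for fluconazole minus 5-FC, 11 to 16 for fluconazole minus metformin and for fluconazole minus trifluoperazine, 1 to 3 for metformin minus 5-FC, 2 to 4 for metformin minus trifluoperazine and 0 for trifluoperazine minus 5-FC. With limma they were 21 for fluconazole minus 5-FC, 23 for fluconazole minus trifluoperazine, 8 for metformin minus 5-FC and 2 for trifluoperazine minus 5-FC, and with TMM 10 for metformin minus trifluoperazine. Over all 361 strains limma called 118 higher and 119 lower for fluconazole minus 5-FC, and 144 and 88 for fluconazole minus trifluoperazine. It called 126 and 12 for metformin minus 5-FC, and 3 and 23 for trifluoperazine minus 5-FC. TMM called 43 and 16 for metformin minus trifluoperazine. Signs turned in 18 of 900 strain results. With TMM strains 124, 185, 649 and 713 were at 0.14, 1.78, 0.77 and 0.52 in fluconazole, and strain 89 at 0.33 in metformin. With limma strains 350, 540, 717, 734 and 760 were at -0.061, -0.47, -0.56, -1.31 and -0.19 in fluconazole, and strain 252 at -0.47 in trifluoperazine. With 1 fluconazole library left out strain 350 was at -0.45 to 0.60, strain 717 at -0.45 to 1.24, strain 185 at -0.54 to 0.31, and strain 649 at -1.99 to 0.37, and with 1 metformin library left out strain 540 was at -0.064 to 0.43. The cause of these changes was not tested.

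The letters A and B did not pair the libraries: over 45 pairs of groups the correlation of same-letter deviations had a median of -0.0097 and ran from -0.274 to 0.290. With the replicate block 22, 14, 17 and 23 members were called higher by summed reads in 5-FC, fluconazole, metformin and trifluoperazine, and 463, 466, 302 and 487 members' features. Over all strains the counts were 54, 51, 44 and 39, and over all features 1114, 1605, 724 and 965. With the replicate block the differences numbered 12, 13 and 15 for fluconazole minus 5-FC, metformin and trifluoperazine, 4 for metformin minus 5-FC, 4 for metformin minus trifluoperazine and 0 for trifluoperazine minus 5-FC. Pools with few reads limit the features near 0 reads.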
